A study of Mus musculus with 12 samples.

Results

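The RIG-I-like receptor pathway was followed through 9 genes, from the receptors that sense RNA in the cytosol to the transcription factors at the end of the cascade, namely Ddx58, Ifih1, Dhx58, Mavs, Trim25, Tbk1, Ikbke, Irf3 and Irf7. They form a list of names with no cut-off on measured values, and all 9 were found among the 55487 genes of each count table. Ribosome-protected fragments (RPF, the pieces of mRNA that a ribosome shields from nuclease) and total RNA had been sequenced from B16F10 cells, a mouse melanoma line labelled as B16. The control cells carried a control short hairpin RNA (shCtr, genotype WT in the labels), and the knockdown cells carried hairpin number 2 against Osgep (shOSGEP, genotype KD OSGEP). Per the study's methods, the hairpins were delivered by lentivirus in independent transductions followed by puromycin selection, so cells of both genotypes were transduced and drug-selected, and both were treated with cycloheximide before lysis. Each genotype had 3 replicates, each with an RPF and a total RNA library, which gave 12 libraries from 6 cell samples. The knockdown cells rest on a single hairpin sequence and were bulk cultures.

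In this pathway RIG-I, the product of Ddx58, and MDA5, the product of Ifih1, are helicases that bind foreign or misplaced double-stranded RNA in the cytosol, RIG-I preferring short ends with a triphosphate and MDA5 preferring long duplexes. Both pass the signal to MAVS on the outer mitochondrial membrane, which activates the kinases TBK1 and IKK-epsilon (Ikbke), and these phosphorylate IRF3 and IRF7 so that they enter the nucleus and switch on interferon-beta and other antiviral genes. Several members, Ddx58, Ifih1, Dhx58, Trim25 and Irf7 among them, are known to be interferon-induced themselves. OSGEP is the enzyme at the core of KEOPS, a complex that places the modification t6A on tRNAs decoding codons that begin with A (ANN codons). The comparison of shOSGEP with shCtr asks how the RNA and the ribosome occupancy of the sensing pathway stand in cells in which Osgep has been knocked down.

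3 sequences are shown for orientation. The first is the one that the study lists for hairpin 2. It was present without mismatch in 7 annotated Osgep transcripts and in 1 processed pseudogene, and the longest run that any of the 9 genes shared with it on either strand was 10 bases, in Ddx58. The second is the stretch around the Ddx58 start site, chr4:40239806-40239925 on the minus strand (RefSeq, GRCm38.p6), with 100 bases upstream and 20 transcribed bases. The third lies 5′ in the Ifih1 transcript, chr2:62646206-62646235 on the minus strand. Capitals in the last pair mark letters of the interferon-stimulated response element, the motif to which IRF and ISGF3 factors bind. They are shown because, among the members searched, only Ddx58 and Ifih1 held such letters.
OSGEP hairpin 2: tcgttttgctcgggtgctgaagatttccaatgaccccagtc
Ddx58: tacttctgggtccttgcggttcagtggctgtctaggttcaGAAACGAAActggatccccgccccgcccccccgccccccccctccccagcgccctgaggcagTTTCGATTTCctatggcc
Ifih1: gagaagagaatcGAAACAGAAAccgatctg

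The letters searched were GAAANNGAAA and the shorter-spaced GAAANGAAA, on both strands, in RefSeq windows of 300 bases (250 before and 50 after each start). A window was found for 8 of the 9 genes, Dhx58 being the one not matched. Ddx58 held both spacings, GAAANGAAA at bases -60 to -52 from the start and GAAANNGAAA on the opposite strand at bases 3 to 12 of the transcript. Ifih1 held GAAANNGAAA at bases 33 to 42 of its transcript. The other 6 windows held neither. Irf7, Trim25 and Ikbke were among these, and they too were higher by over 1 (log2) in total RNA of replicate pair 1. Among all 32851 mouse windows, 3.44% held GAAANNGAAA, 3.17% held GAAANGAAA and 6.27% held at least one of them.

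The libraries were first compared with each other. Total counts were 46.7 to 81.1 M (M for mega) in total RNA and 12.9 to 40.3 M in RPF, of which 4.42 to 17 M fell on protein-coding genes. The shOSGEP replicate 1 libraries stood apart. Chi-square over its degrees of freedom, computed between them and the other shOSGEP libraries, was 508 to 747 for total RNA and 851 to 893 for RPF, against 81.1 to 93.8 and 165 to 244 between all other libraries of one group. Ribosomal RNA took 67.7% of the shOSGEP replicate 1 RPF counts, compared with 27.7% to 44.8% elsewhere. Osgep itself was at 13.9, 15.7 and 15.3 counts per M of library (CPM) in total RNA of shCtr replicates 1, 2 and 3 and at 0.589, 6.92 and 6.77 CPM in shOSGEP. All 3 knockdown libraries lay below all 3 controls, as they did for 3.09% of genes, and the RNA left was 4.25%, 44% and 44.4% of the paired control, so that Osgep RNA was lowest in replicate 1. Osgep footprints were at 7.72, 7.27 and 4.71 CPM in shCtr and 4.87, 3.81 and 2.36 CPM in shOSGEP, which left 63.1%, 52.3% and 50.1% of the paired control, and here the replicate 1 library was the highest of the knockdown group.

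The melanoma label was checked with 7 melanocyte markers (Pmel, Tyr, Tyrp1, Dct, Mlana, Sox10 and Mitf), all of which exceeded 1 CPM in every library. Their summed level in total RNA was 9665 to 16836 CPM in shCtr and 2655, 12789 and 11390 CPM in shOSGEP replicates 1, 2 and 3. In replicate pair 1, 7 of 7 markers were lower in shOSGEP, 6 of them by more than 2-fold, with a median log2 difference of -2.16 in total RNA and -1.74 in RPF. In pair 2, 7 of 7 were also lower in both assays, with medians of -0.36 and -0.69, and in pair 3 it was 2 of 7 in total RNA and 5 of 7 in RPF, with medians of 0.06 and -0.02. In a bulk sample, fewer cells of a type and less RNA per cell cannot be told apart. The 6 leukocyte markers (Ptprc, Cd3e, Itgam, Cd68, Adgre1 and Itgax), whose cells express much of this pathway, summed to at most 4.87 CPM in any library. Cd68, at 0.775 to 4.87 CPM, made up nearly all of the total RNA sum. That sum was lowest, at 0.868 CPM, in shOSGEP replicate 1. Ptprc and Adgre1 went the other way. They were at 0 CPM in total RNA of shCtr and highest, at 0.0775 and 0.0155 CPM, in shOSGEP replicate 1. The 4 fibroblast markers (Col1a1, Col1a2, Pdgfra and Dcn) summed to 6.51 to 8.83 CPM in shCtr total RNA and to 25.3, 10.1 and 10.3 CPM in shOSGEP, whereas the 3 endothelial markers (Pecam1, Cdh5 and Kdr) summed to at most 0.217 CPM in total RNA and 1.24 CPM in RPF. The part of the melanocyte and fibroblast values in the results on the pathway was not tested.

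In shCtr cells the adaptor, one kinase and IRF3 dominated the pathway, and the receptors were present at a much lower level. Per kilobase of exon, total RNA stood at 11.9 ± 1.28 CPM for Mavs (mean ± SD, n = 3), 7.84 ± 1.05 for Tbk1 and 7.12 ± 0.479 for Irf3. Then came Ddx58 at 1.65 ± 0.929, Ikbke at 1.37 ± 0.494, Ifih1 at 0.922 ± 0.266 and Dhx58 at 0.458 ± 0.135 CPM per kilobase. Trim25 (0.0987 ± 0.153) and Irf7 (0.0515 ± 0.0803) were close to undetected. Neighbours in this order whose ranges over the 3 controls overlapped were Tbk1 and Irf3, Ddx58 and Ikbke, Ikbke and Ifih1, and Trim25 and Irf7. RPF, which come from translated sequence, were scaled per kilobase of coding sequence instead. On that scale the upper end was again formed by Mavs (7.11 ± 0.445), Irf3 (7.02 ± 0.753) and Tbk1 (6.89 ± 2.16), whose ranges overlapped. Ikbke followed at 3.35 ± 0.839 CPM per kilobase, ahead of Ddx58 at 1.27 ± 0.684 without overlap, and below Ddx58 each neighbour overlapped with the next.

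**Figure D1:**
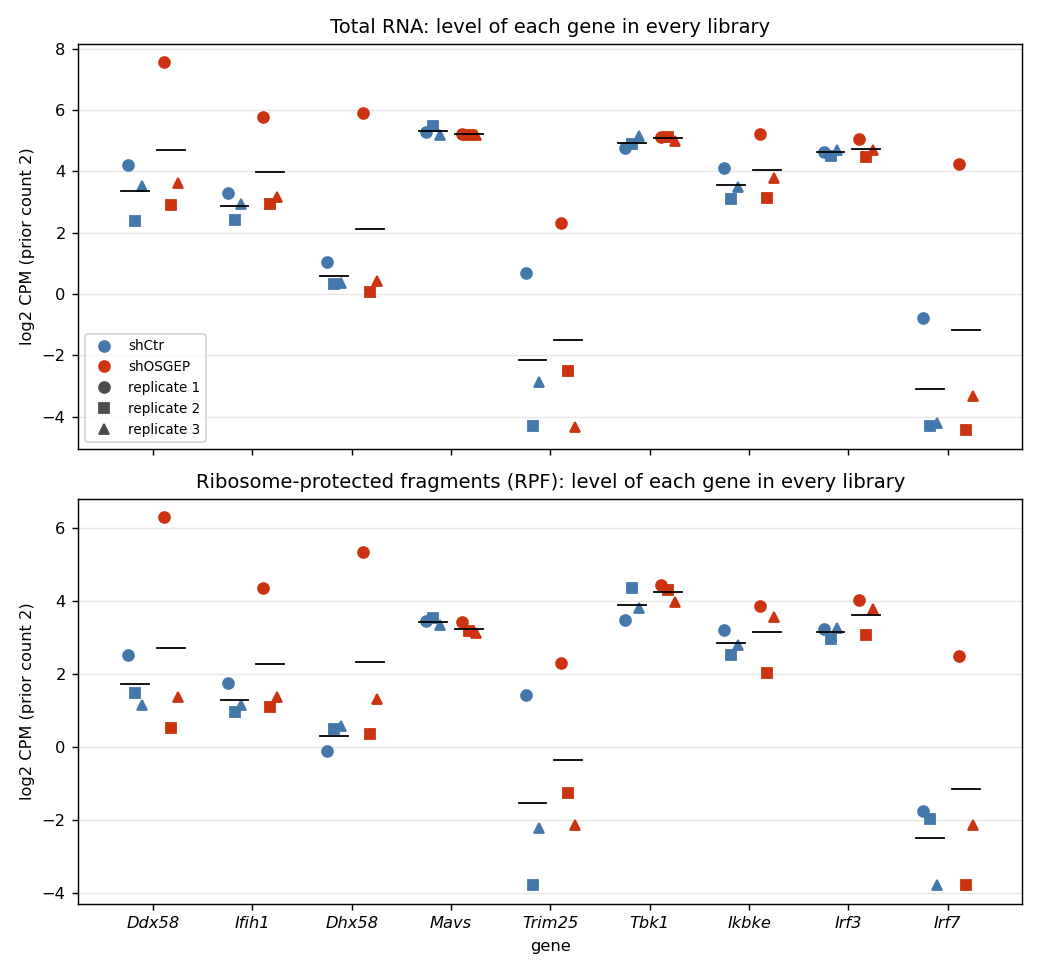
Level of the 9 genes in every library as log2 CPM with a prior count of 2, total RNA above and RPF below. Colours give the genotype, symbols the replicate number and lines the mean of 3 replicates. The shOSGEP replicate 1 circle lies far above the other 5 libraries for Ddx58, Ifih1, Dhx58 and Irf7, whereas Mavs stays within a narrow band. Tbk1 and Irf3 spread less in total RNA than in RPF, where they run from 11.1 to 21.8 CPM and from 7.76 to 16.1 CPM.

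Among the receptors, the sensor RNAs were several-fold higher in one knockdown cell sample and close to the controls in the others. Ddx58 (ENSMUSG00000040296, GRCm38 chromosome 4, 40203773 to 40239828, minus strand) was at 18.3, 5.15 and 11.5 CPM in total RNA of shCtr replicates 1, 2 and 3 and at 188, 7.43 and 12.4 CPM in shOSGEP. Within replicate pairs the ratio of shOSGEP to shCtr was 10.3 (95% exact counting interval 9.65 to 10.9), 1.44 (1.25 to 1.67) and 1.08 (0.963 to 1.2). These intervals, like the others given for pairs, cover counting error only. Every pair had more Ddx58 RNA in the knockdown, but the shOSGEP libraries of replicates 2 and 3 lay within the range of the controls, and shCtr replicate 1 exceeded both of them. The fitted log2 difference was 2.57 ± 1.23 (SE, 95% interval -0.36 to 5.5) with an adjusted p of 0.975 (edgeR quasi-likelihood test, Benjamini-Hochberg). It was -0.24 without shOSGEP replicate 1, 0.24 without replicate 1 of both genotypes, and 1.28 ± 0.73 with the replicate number as a block. In RPF, Ddx58 was at 5.69, 2.73 and 2.14 CPM in shCtr and 78.2, 1.36 and 2.49 CPM in shOSGEP. Here the pairs did not share a direction, with ratios of 13.7 (11.2 to 17), 0.499 (0.322 to 0.774) and 1.16 (0.872 to 1.54). The fitted difference in RPF was 2.96 ± 1.47, 1.00 with the block, -0.88 without shOSGEP replicate 1 and -0.35 without replicate 1 of both genotypes.

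Ifih1 (ENSMUSG00000026896, chromosome 2, 62595798 to 62646255, minus strand), which encodes MDA5, was at 9.68, 5.33 and 7.56 CPM in total RNA of shCtr and at 55.1, 7.61 and 8.95 CPM in shOSGEP. The ratios were 5.69 (5.21 to 6.23), 1.43 (1.24 to 1.65) and 1.18 (1.03 to 1.36). It was the receptor whose 3 pairs were each higher by more than counting error in total RNA, although the groups overlapped because shCtr replicate 1 exceeded shOSGEP replicates 2 and 3. Footprints were at 3.27, 1.88 and 2.12 CPM in shCtr and 20.2, 2.07 and 2.49 CPM in shOSGEP, again with a single library far above the rest. The fitted log2 difference was 1.67 ± 0.78 in total RNA (adjusted p = 0.975, edgeR) and 1.75 ± 0.91 in RPF (adjusted p = 1.00, edgeR). Without shOSGEP replicate 1 these were 0.13 and -0.10, without replicate 1 of both genotypes 0.35 and 0.17, and with the block 1.07 and 0.99.

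Dhx58 (ENSMUSG00000017830, chromosome 11, 100694884 to 100704271, minus strand) encodes LGP2, a receptor without signalling domains that modulates the other two. It had the largest values of the genes that were fitted, and they rested on one cell sample. Total RNA was at 2.01, 1.22 and 1.26 CPM in shCtr and at 59.8, 1.01 and 1.32 CPM in shOSGEP, and RPF at 0.845, 1.33 and 1.4 CPM in shCtr and at 40.5, 1.21 and 2.41 CPM in shOSGEP. In pair 1 the ratio was 29.8 in total RNA (24.8 to 36.1) and 47.9 in RPF (28.7 to 86.2). In the other pairs total RNA did not differ beyond counting error, with ratios of 0.823 (0.587 to 1.16) and 1.05 (0.738 to 1.49), while RPF of pair 3 was 1.72 times the control (1.25 to 2.38). The fitted log2 difference was 3.79 ± 1.57 in total RNA and 3.59 ± 1.32 in RPF, with unadjusted p-values of 0.0471 and 0.0291 and adjusted p-values of 0.975 and 1.00 (edgeR). Without shOSGEP replicate 1 the values were -0.38 for total RNA and 0.58 for RPF. Without replicate 1 of both genotypes they were -0.11 for total RNA and 0.38 for RPF. With the block the values were 1.40 and 1.86. Exons of Dhx58 overlap those of the antisense gene Dhx58os, which had at most 4 reads in any library.

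Trim25 (ENSMUSG00000000275, chromosome 11, 88999376 to 89020293, plus strand), a ubiquitin ligase that acts on RIG-I, was nearly silent outside replicate 1. Total RNA held 93, 1 and 5 reads in shCtr and 322, 11 and 1 reads in shOSGEP, or 1.58, 0.018 and 0.103 CPM against 4.99, 0.142 and 0.0169 CPM. Both genotypes of replicate 1 thus exceeded all other libraries. The gene did not pass the filter on low counts in total RNA. In RPF it did, with 46, 0 and 7 reads in shCtr and 59, 11 and 6 in shOSGEP, where the count of 0 allows up to 0.182 CPM, and the fitted log2 difference was 0.95 ± 1.77. It was -1.86 without shOSGEP replicate 1 and 4.30 without shCtr replicate 1.

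The adaptor Mavs (ENSMUSG00000037523, chromosome 2, 131234063 to 131248025, plus strand) had the smallest standard error of the genes tested in both assays. Total RNA was at 38.8, 44.6 and 36.2 CPM in shCtr and 37.3, 36.5 and 36.5 CPM in shOSGEP, with all knockdown libraries inside the range of the controls. RPF was at 10.8, 11.4 and 10.1 CPM in shCtr and 10.6, 9.04 and 8.58 CPM in shOSGEP, lower in each pair (as were 15.2% of all genes tested), with the replicate 1 libraries almost equal. The fitted log2 difference was -0.12 ± 0.14 in total RNA (95% interval -0.45 to 0.21) and -0.20 ± 0.24 in RPF (-0.75 to 0.36). Unlike the receptors, Mavs in shOSGEP replicate 1 differed from its control by less than counting error in both assays, with ratios of 0.962 (0.908 to 1.02) and 0.977 (0.775 to 1.23).

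Both kinases were higher in the knockdown library of replicate 1, in RNA and in footprints. Tbk1 (ENSMUSG00000020115, chromosome 10, 121546455 to 121586787, minus strand), the constitutive kinase of the pair, was at 27.3, 29.4 and 35.2 CPM in total RNA of shCtr and 34.6, 34.7 and 31.7 CPM in shOSGEP, with a fitted log2 difference of 0.14 ± 0.15 (95% interval -0.23 to 0.50). Its RPF level was 11.1, 20.3 and 13.8 CPM in shCtr and 21.8, 19.7 and 15.7 CPM in shOSGEP, fitted at 0.34 ± 0.30. In pair 1 its ratio was 1.27 (1.19 to 1.35) in total RNA and 1.96 (1.63 to 2.37) in RPF. Pair 2 had more Tbk1 RNA in the knockdown, 1.18 times the control (1.11 to 1.26), and pair 3 had less, 0.899 times (0.842 to 0.961). Ikbke (ENSMUSG00000042349, chromosome 1, 131254343 to 131279606, minus strand) encodes the inducible kinase IKK-epsilon. It was at 17.2, 8.57 and 11.1 CPM in total RNA of shCtr and 37.3, 8.69 and 13.8 CPM in shOSGEP. The ratio was 2.16 (2.01 to 2.33) in pair 1, 1.01 (0.9 to 1.14) in pair 2 and 1.24 (1.11 to 1.38) in pair 3. Its RPF ratios were 1.58 (1.27 to 1.97), 0.708 (0.538 to 0.935) and 1.71 (1.48 to 1.97), so that pair 2 went the other way. The fitted log2 differences were 0.69 ± 0.55 in total RNA and 0.48 ± 0.49 in RPF, and the total RNA value was -0.14 without shOSGEP replicate 1 and 0.18 without replicate 1 of both genotypes.

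Irf3 (ENSMUSG00000003184, chromosome 7, 44997648 to 45002848, plus strand), the factor held ready in unstimulated cells, was at 24.9, 22.7 and 25.9 CPM in total RNA of shCtr and 33.3, 22.2 and 25.6 CPM in shOSGEP. Apart from shOSGEP replicate 1, which was 1.34 times its control (1.25 to 1.43), the libraries did not differ beyond counting error within pairs. RPF was at 9.3, 7.76 and 9.49 CPM in shCtr and at 16.1, 8.27 and 13.6 CPM in shOSGEP, higher in each of the 3 pairs, beyond counting error in replicates 1 and 3, yet with overlap between the groups. The fitted log2 difference was 0.14 ± 0.19 in total RNA and 0.51 ± 0.31 in RPF (95% interval -0.23 to 1.25, adjusted p = 1.00, edgeR). Its exons share 88 bases, 2.56% of their length, with Bcl2l12 on the opposite strand.

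Irf7 (ENSMUSG00000025498, chromosome 7, 141262706 to 141266481, minus strand), whose protein amplifies the interferon response once induced, was close to absent in 5 of the 6 cell samples. Total RNA held 32, 1 and 1 reads in shCtr and 1214, 1 and 4 reads in shOSGEP, and RPF held 4, 3 and 0 reads in shCtr and 67, 0 and 6 reads in shOSGEP. In CPM, the replicate 1 pair went from 0.544 to 18.8 in total RNA, whereas RPF went from 0.225 to 5.53, with ratios of 34.6 (24.3 to 50.8) and 24.5 (9.15 to 92.7). The counts of 0 allow up to 0.0601 CPM in shCtr replicate 3 and 0.0929 CPM in shOSGEP replicate 2. The gene did not pass the filter on low counts in either assay and was not tested. It shares 45 exonic bases with Phrf1 on the opposite strand, 1.19% of its exons, and Phrf1 total RNA was of the same order in pair 1, with 6702 and 6010 reads.

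Across the pathway, 0 of the 7 genes tested in total RNA and 0 of the 8 tested in RPF passed an adjusted p of 0.05, compared with 0% of the 14516 genes tested in total RNA and 0% of the 13529 tested in RPF (edgeR). At an unadjusted p under 0.05 there was 1 gene in each assay, Dhx58, against 1.78% and 1.03% of all genes. DESeq2 called 8 genes in total RNA (0.0551% of those tested) and 1 in RPF (0.00739%), none of them a pathway member, but it gave no adjusted p for Ddx58 and Dhx58 in either assay, so that these could not have been called by it. With no filter on low counts, Ddx58 and Dhx58 were called in RPF, where 229 of 33633 genes were. The fitted log2 difference was above 0 for 6 of the 7 genes in total RNA, with a median of 0.69 against 0.02 over all genes tested, and for 7 of the 8 in RPF, with a median of 0.73 against 0.05. No member's groups were separate in either assay, while 4% of genes in total RNA and 2.43% in RPF had all shOSGEP libraries above all shCtr libraries, and 3.09% and 2.64% had all of them below.

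The replicate pairs differed from each other. In pair 1, 6 of the 9 genes were higher by more than 1 on the log2 scale in total RNA (Ddx58, Ifih1, Dhx58, Trim25, Ikbke and Irf7), as were 10.7% of all genes tested, and 4 of 9 in RPF (Ddx58, Ifih1, Dhx58 and Irf7), against 12.8%. The counts out of 9 here and below include genes that did not pass the filter behind these shares. They are Trim25 and Irf7 in total RNA and Irf7 in RPF. In pair 2 it was 1 of 9 in each assay, Trim25 from few reads, beside 2.78% and 4.82% of all genes. In pair 3 it was 0 of 9 in total RNA and 1 of 9 in RPF, Irf7, beside 3.4% and 6.76%. The median over all 9 genes was 1.64, 0.02 and 0.06 for pairs 1, 2 and 3 of total RNA, and RPF gave 0.97, -0.14 and 0.22. A higher value in 3 of 3 pairs was seen for Ddx58, Ifih1 and Ikbke in total RNA, where 17.7% of all genes showed it, and for Ifih1, Trim25 and Irf3 in RPF, where 15.6% did. The control of replicate 1 also ranked high. It exceeded both other controls for 6 of the 9 genes in total RNA and 5 of 9 in RPF, against 33.4% and 32.2% of all genes. The shOSGEP replicate 1 library was the highest of 6 for 7 and 8 of the 9 genes, compared with 36.4% and 30.6%. The shOSGEP replicate 1 sample is also the one in which Osgep RNA was lowest, the summed melanocyte markers were lowest and ribosomal RNA took the largest share of RPF counts, and the part of each in the pathway's values was not tested.

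**Figure D2:**
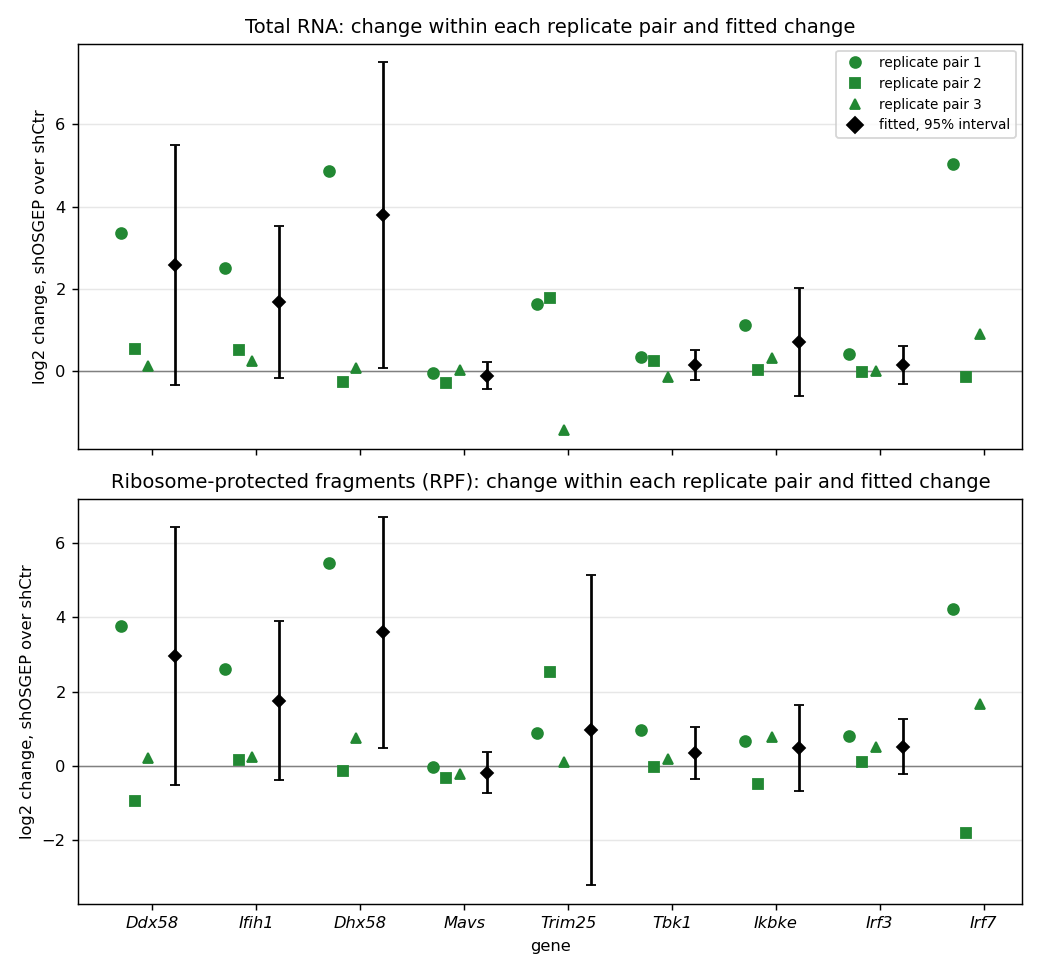
Log2 difference of shOSGEP from shCtr for the 9 genes in total RNA (above) and RPF (below). Green symbols are the replicate pairs and black diamonds the fitted value with its 95% interval, absent where a gene did not pass the filter. Pair 1 lies above the others for Ddx58, Ifih1, Dhx58 and Irf7, and the fitted intervals include 0 except for Dhx58, whose adjusted p did not pass.

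Translational efficiency, computed as RPF over total RNA without scaling for length, differed between the genes in control cells. The coding sequence had 2037 bases against 3272 exonic bases for Dhx58, 2781 against 7050 for Ddx58 and 2154 against 9018 for Ikbke. The order of the genes by this ratio is therefore not an order per length. In shCtr the mean log2 ratio was -1.88 ± 0.071 for Mavs (SD, n = 3), a ratio above that of 15% of the genes tested, and -1.64 ± 0.745 for Ddx58 and -1.60 ± 0.173 for Ifih1, above 26.7% and 29.9% of genes. Irf3 was at -1.46 ± 0.0656, Tbk1 at -1.05 ± 0.455 and Ikbke at -0.73 ± 0.157. Dhx58 stood higher, at -0.27 ± 0.767, above 91.4% of genes. That mean came from 15, 22 and 70 RPF reads in shCtr replicates 1, 2 and 3, with log2 ratios of -1.15, 0.16 and 0.19. The median over all genes tested was between -1.39 and -1.31 in the 6 cell samples. Trim25 and Irf7 rest on too few reads for a ratio to be read outside replicate 1. For Irf7 this holds in shCtr replicate 1 too, with 4 RPF reads and 32 total RNA reads.

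Between the genotypes, efficiency did not separate for any of the 9 genes, whereas 2.03% of genes tested had a higher ratio in all shOSGEP cell samples than in all shCtr ones and 2.31% a lower one. In the fit, 0 of the 7 genes tested passed an adjusted p of 0.05, and 0 had an unadjusted p under 0.05 (edgeR), beside 0% and 0.135% of the 12560 genes tested, and DESeq2 called 0 genes, with no adjusted p for Dhx58. The fitted log2 change in efficiency was 0.37 ± 2.01 for Ddx58, 0.07 ± 1.27 for Ifih1, -0.21 ± 2.08 for Dhx58, -0.09 ± 0.23 for Mavs, 0.19 ± 0.33 for Tbk1, -0.23 ± 0.80 for Ikbke and 0.36 ± 0.36 for Irf3. The precision therefore differed widely. For Mavs the 95% interval ran from -0.60 to 0.42, whereas for Ddx58 it ran from -4.02 to 4.77. This fit does not tie the RPF library to the total RNA library of its cell sample. When the log2 ratio of each cell sample was compared with limma instead, an alternative added after the data were seen, the difference was -0.34 ± 0.47 for Ddx58 (95% interval -1.46 to 0.79), -0.11 ± 0.22 for Ifih1 (-0.64 to 0.42) and 0.46 ± 0.51 for Dhx58 (-0.75 to 1.68). All 3 had the opposite sign to the first fit, so no direction can be given for the receptors. Mavs (-0.10), Tbk1 (0.22), Ikbke (-0.18) and Irf3 (0.33) had the same sign in both. None of the 7 passed an adjusted p of 0.05 or had an unadjusted p under 0.05 in limma, beside 0% and 1.07% of all genes tested. In the cell sample with the highest receptor RNA, the ratio of each receptor differed from its control by less than the SD of the 3 controls. The log2 ratio of Ddx58 was -1.67 in shCtr replicate 1 and -1.26 in shOSGEP replicate 1, that of Ifih1 was -1.54 and -1.44, and that of Dhx58 was -1.15 and -0.56. Irf3 and Dhx58 had a higher ratio in 3 of 3 pairs, a pattern of 11.6% of all genes tested. Irf3 went from -1.41, -1.54 and -1.44 to -1.04, -1.42 and -0.91.

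The share of ANN codons, those read by tRNAs that carry t6A, differed among the coding sequences. It was highest for Ifih1 at 34.6% of 1025 codons, a share above that of 96.2% of the 11244 genes with an efficiency test and a coding sequence. Ddx58 followed with 31.6% of 926 codons and Tbk1 with 30% of 729. Trim25 (27.4%), Dhx58 (26.5%), Ikbke (26.5%) and Mavs (24.9%) lay near the median of all genes, 27%. Irf3 (20.3%) and Irf7 (19.7%) were at the low end, with a share above that of 10% and 8.29% of genes. For the gene with the largest share, Ifih1, the log2 efficiency difference within pairs was 0.10, -0.37 and -0.02. It was 0.40, -1.49 and 0.10 for Ddx58, and 0.63, -0.28 and 0.34 for Tbk1. Dhx58 had 0.59, 0.14 and 0.69, Ikbke -0.45, -0.51 and 0.46, and Mavs 0.02, -0.05 and -0.24. For Irf3 it was 0.37, 0.12 and 0.53. A relation between the share and efficiency was not tested.

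**Figure D3:**
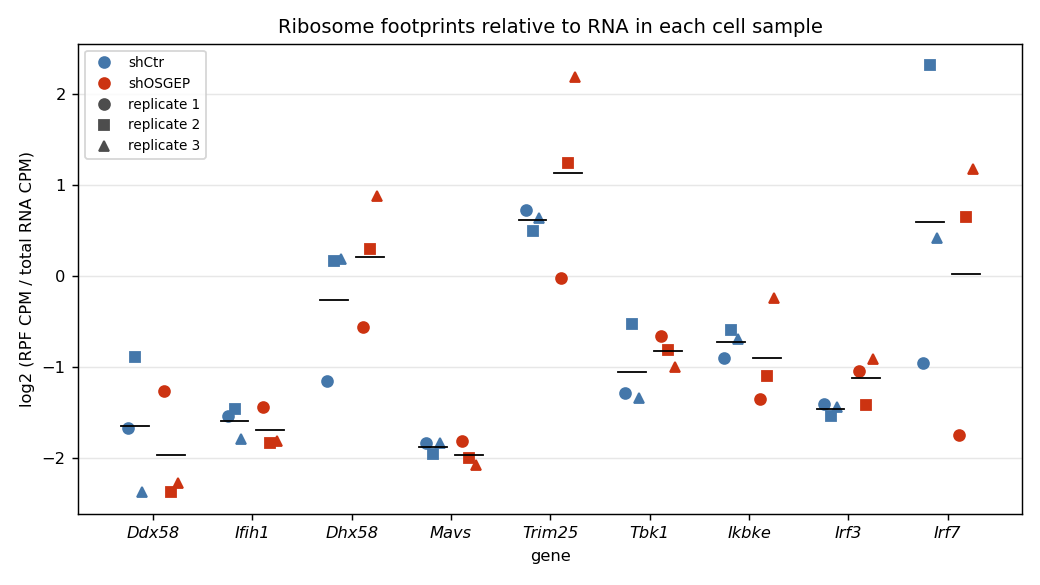
Log2 ratio of RPF CPM to total RNA CPM for the 9 genes in each of the 6 cell samples, with the genotype as colour, the replicate as symbol and the mean as a line. The genotypes overlap for every gene, and Mavs is the lowest of the control means. Trim25 and Irf7 rest on few reads outside replicate 1, and Irf7 also in shCtr replicate 1.

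The genes whose total RNA pattern was most like that of Ddx58 were sought over the 6 total RNA libraries, as the smallest root mean square difference in log2 CPM after centring each gene. Among 12138 protein-coding genes these were Trim12c (0.176), Mcub (0.185), Parp14 (0.21), Pld4 (0.264) and Ifit3 (0.273). Having been chosen for this likeness over the same libraries, they shared the high shOSGEP replicate 1 value of Ddx58 by selection, which is no separate result. Their log2 differences were 2.96 to 3.84 in pair 1 and -0.53 to 0.65 in the other pairs. None passed the test (adjusted p = 0.975, edgeR). Of the other members, Dhx58 ranked 110 and Ifih1 ranked 115 in likeness to Ddx58, Ikbke ranked 510, and Irf3, Tbk1 and Mavs ranked 3128, 5335 and 6570.

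The wider pathway comprised 51 further genes, of which 46 were tested in total RNA and 45 in RPF. None passed an adjusted p of 0.05 in either assay by edgeR or DESeq2, the latter giving no adjusted p for Isg15, Ifit1 and Ifit3. With no filter on low counts, edgeR called 4 genes of the list in RPF (Isg15, Ifit1, Ifit3 and Cxcl10), where 229 of 33633 genes were called. By edgeR with the filter, 2 had an unadjusted p under 0.05 in total RNA (Isg15 and Ifit1) and 2 in RPF (Isg15 and Ifit3). The shares over all genes tested were 1.78% and 1.03%. The median log2 difference over the list was 0.06 in total RNA and 0.11 in RPF. The 9 tested receptor regulators of the 11 listed, such as ubiquitin ligases and phosphatases that act on RIG-I and MDA5, had a median of 0.00 and 4 of them were fitted above 0. The 19 tested adaptor partners of 20 had a median of 0.01, with 10 fitted above 0. The 6 genes of the NF-kappaB arm were all fitted above 0 in total RNA, as were 7712 of all 14516 genes tested, with a median of 0.32, and their median within pairs was 0.71, 0.09 and -0.05. In RPF 5 of the 6 were above 0, and Rela, a subunit of NF-kappaB, was at -0.39 ± 0.27. The 2 genes of the DNA sensing arm, Cgas and Tmem173 (which encodes STING), were fitted at -0.20 ± 0.41 and -0.20 ± 0.20 in total RNA. In RPF they were at -0.18 ± 0.51 and 0.0087 ± 0.47.

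The outputs of the pathway, genes that IRF3, IRF7 or interferon switch on, and the other interferon regulatory factors had the largest values of the list. Of 8 outputs 6 were tested, with a median log2 difference of 2.27 in total RNA and 2.62 in RPF, and within pairs the median was 3.20, 1.02 and 0.40 in total RNA but 3.36, 0.31 and 0.19 in RPF. Isg15, a ubiquitin-like interferon-induced protein, was at 3.37, 0.955 and 1.8 CPM in shCtr and 82.1, 2.02 and 2.38 CPM in shOSGEP, fitted at 3.82 ± 1.52. Ifit1 and Ifit3, which encode RNA-binding antiviral proteins, were fitted at 3.06 ± 1.15 and 2.50 ± 1.08. All 3 were higher in each pair in total RNA, as were 17.7% of all genes tested, by far the most in pair 1. In RPF the log2 differences of pairs 1, 2 and 3 were 5.26, -0.50 and 0.38 for Isg15 and 4.13, 0.46 and 0.01 for Ifit1. For Ifit3 they were 3.65, 1.10 and 0.47.

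The tested chemokines among the outputs, Cxcl10 and Ccl5, which attract T cells, showed the control of replicate 2 as the lowest library. Cxcl10 was at 19.0, 2.61 and 22.8 CPM in shCtr and 155, 5.21 and 23.5 CPM in shOSGEP, fitted at 2.05 ± 1.24. Ccl5 was at 7.09, 1.33 and 6.82 CPM in shCtr and 17.8, 3.58 and 9.26 CPM in shOSGEP, fitted at 1.00 ± 0.75, and was higher in every pair by 1.32, 1.40 and 0.44 on the log2 scale. It was thus one of the genes in which pair 2 differed as much as pair 1. Ifit2, named after its values were seen, was the one tested output that was not higher, at -0.12 ± 0.13. Ifnb1, which encodes interferon-beta, had 0 reads in all 12 libraries, which allows up to 0.0388 to 0.062 CPM in total RNA and 0.0601 to 0.248 CPM in RPF. The 4 other interferon regulatory factors had a median of 1.40 in total RNA, and Irf9, the DNA-binding subunit of the interferon-activated complex ISGF3, was at 7.67, 3.55 and 3.49 CPM in shCtr and 51.7, 3.41 and 5.76 CPM in shOSGEP, fitted at 2.05 ± 1.02.

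**Figure D4:**
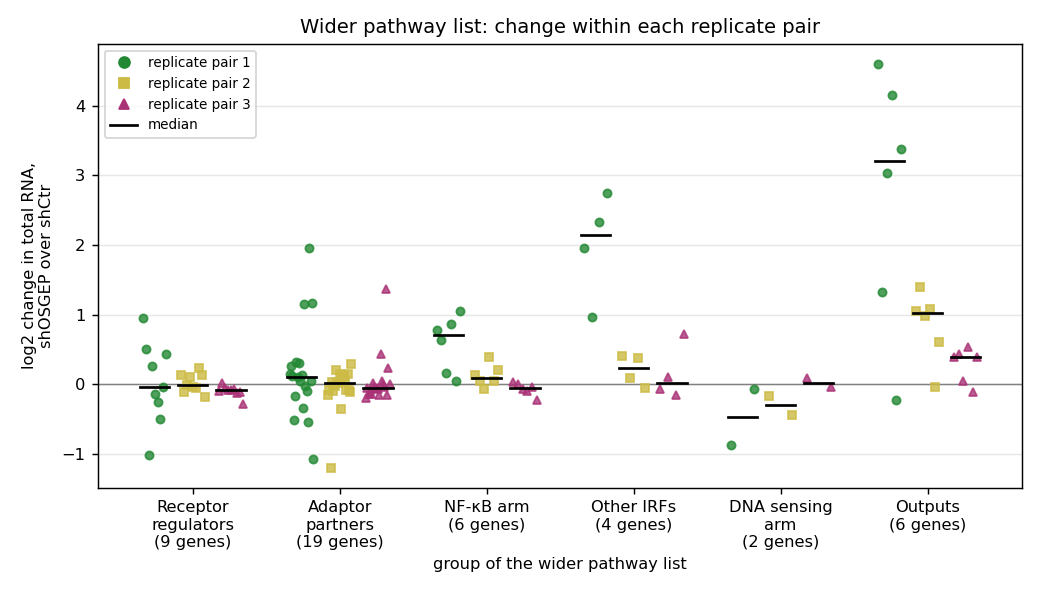
Log2 difference of shOSGEP from shCtr in total RNA for the 46 tested genes of the wider pathway list, by group and replicate pair, with the median of each as a line. The outputs and the other interferon regulatory factors are highest in pair 1, with medians of 3.20 and 2.14, while receptor regulators and adaptor partners have pair medians between -0.08 and 0.10.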

How the data were processed

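The authors deposited 1 table for RPF and 1 for total RNA, each holding whole-number read counts per Ensembl gene with no normalisation. Per the labels, RPF came from nuclease-digested lysate with active ribosomes captured on beads. The submitters' processing notes name FastQC, Trim Galore, cutadapt and STAR and both GRCm38 and GRCm39. The study's methods describe alignment of RPF to GRCm38 with STAR for its codon and stalling analyses. How reads were summed into the deposited counts, with the annotation, strand and multi-match handling, is not given in the sources used here. Gene models came from GENCODE M21 (GRCm38), where 55227 gene IDs were found and 260 were not.

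Groups and replicate numbers came from the labels. Counts were fitted with the edgeR 4.0.16 quasi-likelihood test in R 4.3.3 after filterByExpr and TMM scaling, for each assay separately, over all genes, with Benjamini-Hochberg adjustment at 0.05. Efficiency was the interaction of assay and genotype over all 12 libraries. Log2 CPM used a prior count of 2. The scripts were tested on simulated data with the same dispersion for every gene and no outlying replicate, unlike the libraries here. Correlations of same-numbered libraries' deviations from their group means were 0.515, 0.542 and 0.287 (total RNA) and 0.586, 0.508 and 0.665 (RPF), so replicate numbers were taken to pair the samples in an alternative fit. DESeq2 1.42.0, RLE factors, no filter, protein-coding genes only and omission of libraries were further alternatives, and limma 3.58.1 on the log2 ratio of each cell sample was added for efficiency after the data were seen. Limits on a count of 0 used 3 counts.

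The 9 genes, the wider list and the markers were chosen with earlier results of these data known. From the wider list the text names the 5 genes with the largest total RNA values at a mean of 1 CPM or more, plus Ifnb1, Isg15, Ccl5 and Cxcl10. Cgas, Tmem173, Rela and Ifit2 were named after their values were seen. The 5 genes most like Ddx58 were named by the smallest root mean square difference.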

Additional observations from a re-analysis of the deposited data

How the results depend on the processing

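Leaving out 1 library at a time, or replicate 1 of both genotypes, moved these genes most. The median log2 difference of the pathway ranged from -0.14 to 1.05 in total RNA, from 0.0026 to 1.35 in RPF and from 0.01 to 0.12 in efficiency over these fits, the lowest total RNA and RPF values being those without shOSGEP replicate 1, and 0 genes were called in any of them. In total RNA the ranges were -0.24 to 3.10 for Ddx58, -0.38 to 4.34 for Dhx58, -0.14 to 1.05 for Ikbke and -0.044 to 0.26 for Irf3. In RPF they were -0.88 to 3.50 for Ddx58, -0.10 to 2.20 for Ifih1 and -1.86 to 4.30 for Trim25, the highest of these without shCtr replicate 1. In efficiency they were -0.62 to 0.57 for Ddx58, -0.68 to 0.96 for Dhx58, -0.22 to 0.12 for Ifih1 and -0.56 to 0.25 for Ikbke. Of 153 results from such fits, 133 kept direction and call and 20 changed direction.

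Under the replicate block, edgeR called 1 gene in total RNA, 0 in RPF and 0 in efficiency, none of them a member, and the median of the members was 0.48, 0.73 and -0.06. The block turned the efficiency value of Ddx58 to -0.22, of Dhx58 to 0.50 and of Ifih1 to -0.065, all well within their errors, and changed no call of a member. With no filter on low counts 229 genes were called in RPF and 21 in efficiency, Ddx58 (2.81, adjusted p = 2.66e-08, edgeR) and Dhx58 (3.44, adjusted p = 4.64e-09, edgeR) among those in RPF, and Ifih1 efficiency turned to -0.013. The cause was not tested. Limma on the ratio of each cell sample called 0 genes and turned efficiency to -0.34 for Ddx58, 0.46 for Dhx58 and -0.11 for Ifih1. DESeq2 called 8 genes in total RNA and 1 in RPF and gave 5 member results no adjusted p. Under settings other than omission, 102 of the other 111 results kept direction and call. Depth limits Trim25 and Irf7 most, whose libraries outside replicate 1 hold at most 11 reads.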
